A study of Mus musculus with 2 samples.

Results

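Cytoplasmic ribosomal protein genes were taken from the platform annotation of the array by symbol: Rpl or Rps with a number and an optional a, l or x, Rplp0, Rplp1, Rplp2 and Rpsa, leaving out Rpl39 and Rpl39l. The annotation listed 72 such genes. Of these, 44 had at least 1 probe set listed for that gene alone, 98 probe sets in all, out of 18193 genes with such a probe set. These 44 genes, 22 of the large subunit and 22 of the small subunit, carry the gene values below. The other 28 were listed only on probe sets shared with retrocopies or other genes, and are described by probe set. Total RNA of mouse embryonic stem (ES) cells had been hybridised to 2 Affymetrix Mouse Genome 430 2.0 arrays. The control group has 1 array and the knockout (KO) of Dnmt1, the enzyme that copies DNA methylation onto new strands, has 1. The arrays were made to characterise the KO cells as a control for other work on differentiation. The labels give no strain, allele, clone or passage, and the title alone marks the KO array, since its source name reads as a control.

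The cytoplasmic ribosome has a small subunit, which reads the messenger RNA, and a large subunit, which joins amino acids and releases the new chain through an exit tunnel. Nearly every one of their proteins is needed in a single copy per ribosome, so their genes are expressed in every growing cell at matched and high levels. Their messenger RNAs typically begin with a C followed by a run of pyrimidines, the TOP motif, through which the mTORC1 kinase adjusts their translation to nutrients and growth signals. Their genes have left many retrocopies in the mouse genome, and these make array probes for a single copy hard to design.

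Values are MAS5 signals as deposited. Differences are log2 ratios of the KO over the control signal. Signals under an array's median, the floor (60.9 on the control and 74.2 on the KO array), were raised to it, and the brightest probe set stood for the gene. The median gene above the floor on both arrays was 1.34-fold brighter on the KO array, a shift of 0.43 on the log2 scale, so that shift was subtracted from every ratio not called as deposited. With 1 array per group there was no test and no spread between replicates. The pooled SD between probe sets of the same gene, 0.24 over 4704 genes and 0.15 over 19 ribosomal protein genes, is a technical scale that covers neither culture nor array. Dnmt1 went from 1949.1 to 262.1 on its brightest probe set, 7.44-fold lower as deposited. All 10 ES cell markers were above the floor on both arrays, among them Pou5f1 (2689.7 and 3297.0) and Sox2 (5436.6 and 6962.0). The ES cell markers were not all alike on both arrays: Nanog had 592.5 and 1965.5, past 2-fold relative to the shift, and Utf1 2460.9 and 2154.9 (ratio -0.62). Of 16 fibroblast markers with a probe set, 7 were below the floor on both arrays, Col3a1, Postn, Lum and Dcn included, and their 16 signals summed to 5631.0 on the control and 6928.8 on the KO array. Others were well above it and differed in both directions: Tagln had 707.9 and 345.9 (-1.46), Mmp2 554.7 and 502.7 (-0.57), Fn1 2361.2 and 2697.9 (-0.23) and Vim 1016.1 and 1986.0 (0.54). The part of these cell-state and fibroblast marker differences in the ribosomal protein ratios was not tested. In such bulk RNA, fewer cells of a type and less RNA per cell cannot be told apart.

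Of the 44 genes, 42 exceeded the floor on both arrays. The other 2 were below it on both and have no ratio: Rpl3l, a muscle paralog of Rpl3, had 23.5 and 35.0, and the only single-gene probe set of Rps16 had 1.6 and 1.2. As deposited, 40 of the 42 were brighter on the KO array, against 90.5% of the 12226 genes above the floor on at least 1 array. Relative to the shift, 37 of the 42 lay below it, against 50.8% of all genes. Their median was -0.17, or 0.26 as deposited, beside 0.00 and 0.42 for all genes. No member was at least 2-fold higher (1.09% of all genes), and Rps27 alone was at least 2-fold lower (0.532% of all genes). As deposited, 0 members were at least 2-fold higher (4.92% of all genes) and Rps27 again was the 1 that was 2-fold lower (0.0982%). At a 1.2-fold threshold, 8 members were lower, where 19.7% of all genes were, and none was higher, where 18.5% were. The share of members at least 1.2-fold lower was thus near that of all genes, and most members lay between that threshold and the shift, with none past 1.2-fold on the high side.

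**Figure D1:**
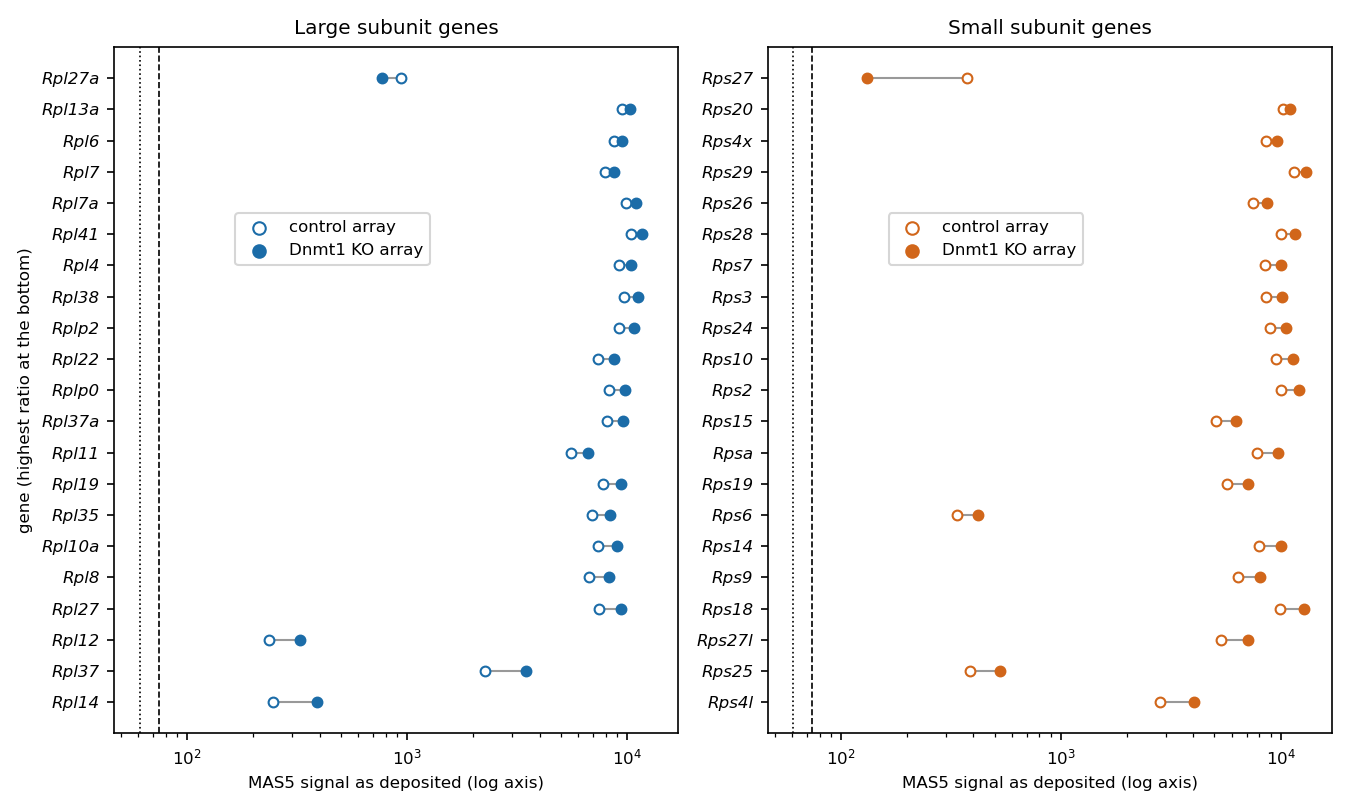
Deposited MAS5 signal (log axis) of the 42 ribosomal protein genes above the floor on both arrays, control as open and Dnmt1 KO as filled circles, with the gene of the lowest ratio at the top of each panel; dotted and dashed lines mark the control and KO floors of 60.9 and 74.2. In 40 of 42 genes the filled circle lies to the right, and Rps27 and Rpl27a are the exceptions.

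Among genes of high signal, the ratio fell as signal rose, in members and in others. A probe set's signal depends on its probes, so signals are not compared here as levels between genes. The 34 members with a mean signal above 4000 all lay between -0.33 and -0.01, with a median of -0.18 and an interquartile range of 0.11. The 168 other genes of that signal had a median of -0.12 and an interquartile range of 0.20, and 76.2% of them lay below the shift. Above a mean signal of 8000 there were 48 genes, of which 27 were members. Their median was -0.19, while all 21 other genes there also lay below the shift, with a median of -0.26. Those others included the elongation factor Eef1a1 (12230.6 and 12837.3, ratio -0.36), the actin gene Actg1 (11335.1 and 12113.9, -0.33) and the chaperone gene Hspa8 (10848.4 and 11914.6, -0.29). Between 4000 and 8000 the medians were -0.12 for 7 members and -0.10 for 147 other genes. Across the 34 bright members, ratio and mean log2 signal correlated at r = -0.48 (rho = -0.47), and across the 168 other genes at r = -0.32 (rho = -0.31). Over all 42 members, dim ones included, r was 0.23 and rho was -0.45, of opposite sign. These are descriptions across genes that share the same 2 arrays. The part of signal in the members' low ratios was not tested. With the ratio smoothed on signal by lowess, the members' median was -0.02 with 27 of 42 below 0, and with quantile normalization it was 0.01 with 16 of 42 below 0. With the mean over a gene's probe sets in place of the brightest it was -0.12.

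**Figure D2:**
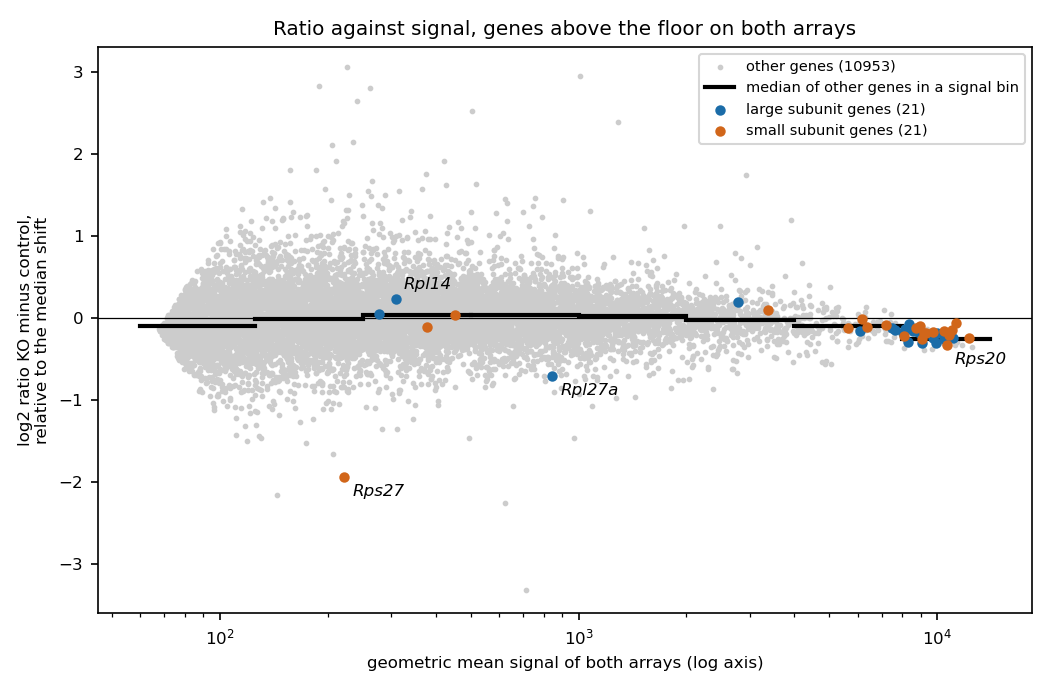
Log2 ratio relative to the median shift against the geometric mean signal (log axis) for 10953 other genes (grey) and the large (blue) and small (orange) subunit genes, with the median of the other genes in each signal bin as a black bar. The black bar falls from 0.04 between 500 and 1000 to -0.26 above 8000, and 27 ribosomal protein genes sit in that last bin.

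The medians of large and small subunit genes lay close together. The 21 measured large subunit genes had a median of -0.18 and an interquartile range from -0.25 to -0.13, and 18 lay below the shift. The 21 small subunit genes had a median of -0.15 and a range from -0.21 to -0.10, and 19 lay below the shift. The medians differed by -0.04 (large minus small), and by -0.03 over the 34 bright members, 17 of each subunit. Without Rps27 the small subunit median was -0.13. On the bright probe sets shared with retrocopies, the medians were -0.14 over 52 large subunit and -0.15 over 21 small subunit probe sets.

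Within the large subunit, the stalk that recruits elongation factors is built on Rplp0 with the acidic proteins Rplp1 and Rplp2. Rplp0 went from 8248.7 to 9761.2 (ratio -0.18) and Rplp2 from 9207.8 to 10808.2 (-0.19). Rpl12, at the base of the stalk, had 235.1 and 326.6 (0.05) on its own dim probe set. Its bright probe sets shared with other symbols were at -0.15 (8980.7 and 10836.0) and -0.09. Of the pair that carries the 5S RNA and can bind Mdm2, only Rpl11 had a single-gene probe set, with 5560.7 and 6668.0 (-0.16). Around the exit tunnel, Rpl4, which forms part of its narrowest point, had 9145.6 and 10414.4 (-0.24). Rpl19 had 7780.6 and 9374.2 (-0.16) and Rpl35, beside the tunnel's mouth, 6926.1 and 8396.2 (-0.15), though the 6 probe sets of Rpl35 averaged -0.04 ± 0.13 (SD). Near the catalytic centre and the transfer RNA sites, Rpl8 had 6718.9 and 8316.4 (-0.12) and the mobile L1 stalk protein Rpl10a 7367.2 and 9032.3 (-0.13). Each of these was brighter on the KO array as deposited. All were bright and lay below the shift, except Rpl12 on its own probe set.

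The lowest large subunit genes after Rpl27a were Rpl13a (9531.5 and 10358.4, ratio -0.31), which also silences translation of inflammatory messenger RNAs, Rpl6 (8693.1 and 9476.1, -0.30) and Rpl7 (7908.9 and 8697.2, -0.29). For Rpl13a the 4 probe sets averaged -0.13 ± 0.13 (SD between probe sets), so its brightest one was the lowest of the gene. The 3 probe sets of Rpl7 averaged -0.22 ± 0.07. The highest were Rpl14 (246.2 and 387.8, 0.23) and Rpl37 (2252.5 and 3457.3, 0.19), both on probe sets of less than 4000. The 5 brighter probe sets listed for Rpl14 with Rpl14-ps1 ran from -0.16, for the brightest, to 0.06, with a median of 0.03, the last in the order of the shared families. The brightest listed for Rpl37 with Rpl37rt was at -0.13.

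In the head of the small subunit, which holds the transfer RNAs and swivels during translocation, 8 of 9 measured genes lay below the shift, with a median of -0.16. Rps20, a head protein marked with ubiquitin when ribosomes collide, had 10290.1 and 10979.6 (-0.33). Its 4 probe sets ran from -0.78 to -0.21 (-0.40 ± 0.26, SD), and none lay above the shift. The probe sets at -0.78 (95.3 and 74.5) and -0.28 (80.3 and 88.8) were close to the floors of 60.9 and 74.2. The mean and SD therefore rest partly on signals near the floor. The bright probe sets of Rps20 were at -0.33 and -0.21. Rps29, a small zinc-binding protein, had 11484.6 and 13091.4 (-0.24), and Rps28 had 9993.7 and 11591.7 (-0.21) with its 3 probe sets at -0.22 ± 0.01 (SD). Rps25, which helps initiation on viral internal entry sites, was the exception at 385.1 and 529.0 (0.03).

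At the platform, where the messenger RNA leaves, all 5 measured genes lay below the shift. Apart from Rps27, these were Rps26, which contacts the message upstream of the start codon (7526.6 and 8672.8, -0.22), Rps28, Rpsa, also described as a laminin receptor (7818.4 and 9690.3, -0.12), and Rps14 (7972.8 and 10003.8, -0.10). At the decoding site and the entry channel, the 4 measured genes ran from -0.18 for Rps3 (8568.5 and 10148.3) to -0.09 for Rps9 (6392.1 and 8067.7), with Rps2 (9988.1 and 12129.4) at -0.15 and Rps15 (5057.9 and 6255.6) at -0.12. Of 19 listed genes whose human forms are mutated in Diamond-Blackfan anaemia, 11 were measured. All 11 lay below the shift, with a median of -0.17, the same as for all members, and Rps27 was the only one past 1.2-fold. Rps4x, encoded on the X chromosome, had 8603.9 and 9620.9 (-0.26), and its autosomal copy Rps4l had 2820.4 and 4024.9 (0.09). The medians of the role groups with at least 2 measured genes ran from -0.21 at the platform to -0.12 at the catalytic centre, and the 2 measured paralogs, Rps4l and Rps27l, had a median of 0.04.

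**Figure D3:**
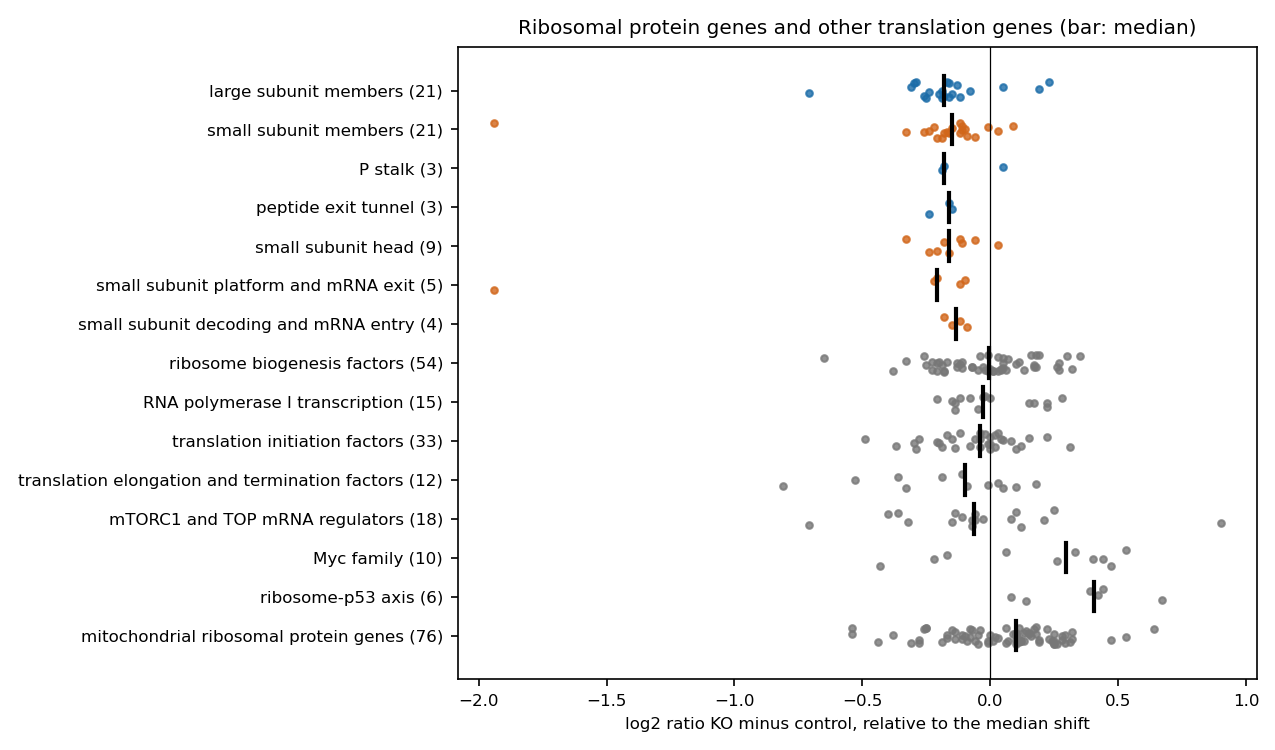
Log2 ratio relative to the median shift for ribosomal protein genes by subunit and role (blue and orange) and for other translation genes (grey), 1 point per gene above the floor on at least 1 array, with the median as a bar and the number of genes in brackets. The medians of the subunits and of the 5 role groups drawn lie between -0.21 and -0.13, the mitochondrial ribosomal protein genes at 0.10, and Rps27 is the point at -1.94.

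Rps27 stood apart from every other member, but on 1 probe set. It encodes a zinc-finger protein of the small subunit platform. Its only single-gene probe set had a signal of 376.2 on the control and 131.6 on the KO array, 2.86-fold lower as deposited and 3.84-fold lower relative to the shift (log2 ratio -1.94). A second probe set was annotated to Rps27 and to Rps27rt, its retrocopy on chromosome 9. That probe set had 5269.4 and 6685.6, a ratio of -0.08, within the range of the other bright members. The lower signal was therefore seen on the dim probe set only, and the difference in ratio, dim minus shared, was -1.86. Rps27l, the p53-inducible paralog, had 5341.2 and 7116.8 on its brightest probe set (-0.01), and its 3 probe sets averaged -0.03 ± 0.02 (SD). The fusion gene Rps27a, which makes ubiquitin and a small subunit protein as 1 chain, had no probe set listed for it alone. It was not among the genes listed on the bright shared probe sets either, so it has no value here. With the floor at the 75th percentile, the Rps27 ratio was -0.92, because its KO signal then equalled that floor.

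Rpl27a showed the same arrangement at a smaller size. Its single-gene probe set above the floor had 933.7 and 765.5, 1.64-fold lower relative to the shift (log2 ratio -0.71), and it was the only other member that was dimmer on the KO array. Its second single-gene probe set was below the floor on both arrays. A bright probe set listed for Rpl27a and 4 predicted genes had 7718.1 and 9494.2 (-0.13). In all, 10 members had both a single-gene probe set above the floor and a bright shared one. The brightest shared probe sets of these 10 ran from -0.30 to 0.03, whereas their single-gene probe sets ran from -1.94 to 0.23. Rps6, the target of S6 kinase, had 338.4 and 421.7 on its own probe set (-0.11) and 9129.3 and 9989.4 on the brightest probe set shared with Rps6-ps4 (-0.30). Whether the shared signal comes from the gene or from its copies is not known from these arrays.

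**Figure D4:**
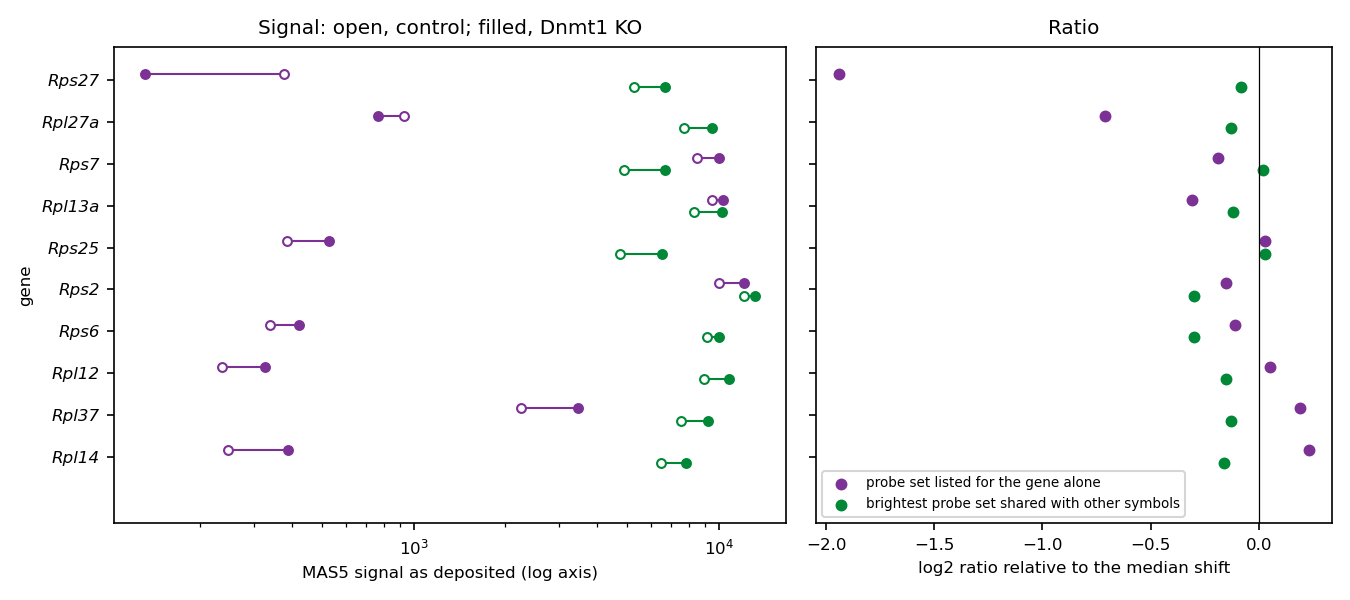
Signals (left, log axis; open, control; filled, Dnmt1 KO) and log2 ratios relative to the median shift (right) for the 10 ribosomal protein genes with both a probe set of their own (purple) and a bright probe set shared with other symbols (green, the brightest). Rps27 and Rpl27a are low on their own probe set, at -1.94 and -0.71, and at -0.08 and -0.13 on the shared one.

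Start sites were searched for a run of pyrimidines like that of the TOP motif, and those of Rps27 and its retrocopy were set side by side. The windows below are from RefSeq, build GRCm38.p6, 15 bases before and 15 bases from the annotated start on, read in the direction of transcription. Capitals mark the longest run of C and T that opens with a C within 10 bases of the start and has at least 5 bases.
Rps27: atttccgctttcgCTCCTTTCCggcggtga
Rps27rt: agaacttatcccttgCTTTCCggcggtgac
Rps27l: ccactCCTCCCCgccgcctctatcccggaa
Rpl27a: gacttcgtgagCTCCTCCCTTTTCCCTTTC
Rpl35: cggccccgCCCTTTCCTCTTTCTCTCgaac
Rplp2: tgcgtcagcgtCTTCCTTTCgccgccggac
Rps18: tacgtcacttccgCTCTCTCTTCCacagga
Rps6: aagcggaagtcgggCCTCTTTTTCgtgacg
Rps4x: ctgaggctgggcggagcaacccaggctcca
Rps27 and Rps27rt are shown because they share a probe set, Rps27l as their paralog, and Rpl27a as the other gene dimmer on the KO array. Rpl35, Rplp2, Rps18 and Rps6 are examples of long runs, and Rps4x has no run in this window. The Rps27 window is chr3:90213634-90213663 on the minus strand and that of Rps27rt chr9:114982725-114982754, also minus. The first 50 transcribed bases of Rps27 and Rps27rt were aligned locally, which keeps only the best-matching stretch. That stretch had 38 bases, from base 2 of Rps27 and base 1 of Rps27rt on, and all 38 were identical. Bases beyond it were left unaligned. The regions around the starts differed, with 22 CpG sites in 300 bases at Rps27 and 9 at Rps27rt. The other windows are chr9:66946071-66946100 (plus strand) for Rps27l, chr7:109519180-109519209 (plus) for Rpl27a, chr2:39005117-39005146 (minus) for Rpl35, chr7:141447636-141447665 (plus) for Rplp2, chr17:33955651-33955680 (minus) for Rps18, chr4:86857353-86857382 (minus) for Rps6 and chrX:102189377-102189406 (minus) for Rps4x. The marked run of Rps27l, its longest, lies wholly before its annotated start, and so outside the annotated RNA. A shorter run of 5 bases opens at base 2 of that RNA. The gene also has another annotated start with no such run.

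Of 38 members with a promoter in that table, 24 (63.2%) had such a run at 1 of their starts. The share was 34.4% of 27025 genes and 37.5% of the 9870 genes above the floor on at least 1 array. Among 67 mitochondrial ribosomal protein genes it was 46.3%. A stricter match required the C at the annotated first base, followed by at least 4 C or T. It held for 8 members (21.1%), 3.01% of all genes and 0 of the mitochondrial ribosomal protein genes. Only the strand that reads like the RNA was searched, since the motif is read in the RNA. The match is to letters at annotated starts, which need not be the starts used in these cells. Members with and without the run had alike ratios, with medians of -0.16 over 23 genes and -0.17 over 13. The members' promoters were rich in CpG, the site that Dnmt1 methylates, with a median of 22.5 in 300 bases. The median was 20 for the measured genes, 21 for the mitochondrial ribosomal protein genes and 7 for all.

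Among members with several probe sets, 4 had the widest spread of ratios. Rpl22 ran from -0.30 to 0.36 over 3 probe sets (-0.05 ± 0.35, SD), and its highest was a dim one (511.3 and 878.2). Rps3 ran from -0.18 to 0.22 over 2 probe sets (0.02 ± 0.28, SD), and Rpl27 from -0.08 to 0.31 over 3 (0.06 ± 0.22, SD). Rps20 is given above. By signal, the 65 single-gene probe sets with a mean above 4000 had an SD of 0.09 and ran from -0.33 to 0.19, and 63 lay below the shift. The 18 with a mean below 1000 had an SD of 0.53 and ran from -1.94 to 0.36, and 12 lay below the shift. That SD includes the Rps27 probe set at -1.94, and without it they ran from -0.78 to 0.36. The 4 with a mean from 1000 to 4000 ran from 0.00 to 0.31, the last being a probe set of Rpl27 (2741.0 and 4570.4).

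Probe sets shared with other symbols covered 42 members, 28 of which had no probe set of their own. Of 109 such probe sets, 101 were above the floor on both arrays and 73 had a mean signal above 4000. These 73 had a median of -0.14, and 64 lay below the shift, while 71 were brighter on the KO array as deposited. The 2 that were dimmer belonged to the probe sets listed for Rpl13 and Rpl13-ps6. Those 3 bright probe sets had 11553.0 and 11881.7, 9706.5 and 9578.4, and 7909.7 and 7623.0, with ratios of -0.38, -0.44 and -0.48. The other 70 ran from -0.36 to 0.06. Rpl13 lies on chromosome 8, whose 601 genes above both floors had a median of -0.37, with 90.3% of them below the shift. No member with a probe set of its own lies there, so the members' median does not draw on that chromosome. The part of chromosome 8 in the Rpl13 signals was not tested.

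Other genes of the pathway, from lists set beside the members, mostly lay around the shift. Most had a mean signal at or below 4000, where the medians of other genes by signal bin ran from -0.10 to 0.04. Those above 8000 all lay below the shift, as did every gene of that signal. These were Eef1a1 (-0.36), Tpt1 (-0.33), Rps3a1 (-0.26), Pabpc1 (-0.21), Npm1 (-0.20), Eif5a (-0.19), Eif4a1 (-0.14) and Eef2 (-0.09). The part of signal in the contrast with the members was not tested. The 54 measured ribosome biogenesis factors had a median of -0.01 and none was 2-fold different. Nob1 (607.6 and 521.7, ratio -0.65), the nuclease that finishes 18S RNA, and Nip7 (1214.9 and 1252.4, -0.38) were the lowest, and both lie on chromosome 8. Rsl24d1 was at 0.35 and Wdr12 at -0.33. The 15 genes of RNA polymerase I transcription had a median of -0.03 (0.09 with the mean over probe sets), from -0.21 for Taf1d (whose 6 probe sets averaged 0.25 ± 0.27, SD) to 0.28 for the initiation factor Rrn3, with Taf1b and Polr1a at 0.22. Initiation factors (33 genes) had a median of -0.04, with Eif4g3 at -0.49, Eif1ax at -0.37, Eif2b1 at 0.31 and Eif1b at -0.30. Elongation and termination factors (12 genes) had a median of -0.10, which was 0.02 with quantile normalization and 0.03 with lowess. Nacad, at the floor on the KO array, was at -0.81 or below, the ribosome recycling factor Abce1, on chromosome 8, at -0.53, Eef1a1 at -0.36, and Tpt1, another TOP messenger RNA, at -0.33.

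Among ribosomal proteins named differently, Rps3a1 was at -0.26, Fau, a ubiquitin-like fusion, at -0.01, Rpl7l1 at 0.10 and the Rpl22 paralog Rpl22l1 at 0.24 (2545.1 and 4025.0). The 18 measured mTORC1 and TOP regulators had a median of -0.06. Akt1s1, an mTORC1 inhibitor, went from 270.1 to 674.5 (0.90, with 2 probe sets at 0.65 ± 0.35, SD), and the TOP-binding protein gene Tial1 had -0.71 (4 probe sets at -0.25 ± 0.33, SD). Tbc1d7 and Tia1 were at -0.40 and -0.36. In the Myc family, the drivers of ribosome production Myc (894.0 and 1027.3) and Mycn (3275.5 and 3917.4) lay below the shift, at -0.22 and -0.17. Their paralog Mycl (162.5 and 227.8) lay above it at 0.06, with 3 probe sets at 0.20 ± 0.27 (SD). The shared partner Max was at 0.53, and of the antagonists Mnt was at 0.47, Mxi1 at 0.44 and Mxd3 at -0.43. The family's median of 0.29 over 10 genes mixes drivers with antagonists, and Mxd1 and Mxd4 enter it at the control floor, with at least 0.33 and 0.40. Of 10 genes listed for the p53 axis, 6 were measured. All 6 lay above the shift (median 0.41), where 50.8% of all genes lay below it. They ran from Nop53 at 0.08 and Zmat3 at 0.14 to Cdkn1a at 0.67, with Mdm4 at 0.44, Ccng1 at 0.42 and Mdm2 at 0.39. Whether free ribosomal proteins have a part in these levels was not tested. No gene of these lists that exceeded both floors was 2-fold higher or lower relative to the shift.

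Mitochondrial ribosomal protein genes, which serve the organelle's own ribosome, lay more often on the other side of the shift. Of 76, 47 were above it and 29 (38.2%) below, with a median of 0.10 and an interquartile range of 0.28. The cytoplasmic genes had 5 above and 37 below. Of all genes, 50.8% lay below the shift. In the signal bins from 250 to 2000, which held most of the mitochondrial genes, 44.3% to 45.7% of other genes lay below it, with medians of 0.02 to 0.04. The ends of their range were Mrps11 (293.0 and 613.3, 0.64) and Mrps24 at 0.53, and Mrps30 and Mrpl34 at -0.54, the last on chromosome 8. The families differ in signal, and the ratio of other genes was lower at high signal, as given above. As deposited the medians were 0.26 and 0.52, so both families were brighter on the KO array. The medians were -0.02 and 0.06 with lowess, and 0.01 and 0.07 with quantile normalization, so the gap between them was smaller in both. The difference was not tested, since members are not replicates of a genotype.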

How the data were processed

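Signal intensities on a linear scale were deposited for 45101 probe sets on 2 arrays, 1 per group, and were made with MAS5 per the submitters' processing notes. How the arrays were scaled, and any detection calls, are not stated in the labels. RNA came from a phenol-based extraction and column clean-up, with 1 cycle of amplification, per the labels' protocols. Precision is limited by having 1 array per group. The 64 control probe sets were left out of gene values. In the platform annotation 34958 probe sets had 1 symbol, 932 several and 9211 none; probe sets with several symbols named no single gene. RefSeq (GRCm38.p6) gave chromosomes for 34741 of 34945 single-gene probe sets, and promoter windows for 38 of 44 members.

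Log2 ratios, floor, shift and fold counts were computed with numpy 2.4.6 and pandas 2.3.3, lowess with statsmodels 0.14.6, and the steps were tested on simulated data. The members and lists were chosen with earlier results of these data known. Named were Rps27 and its paralogs, the 6 highest and 6 lowest members, members at the floor, up to 4 members per role group and list with the largest ratios, and the 4 members with the widest spread. Other genes of high signal, bright shared probe sets, other markers, Myc family members and Rpl22l1 were chosen after their values were seen.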

Additional observations from a re-analysis of the deposited data

How the results depend on the processing

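No paired analysis was possible because each group has 1 array. The alternatives covered scaling, floor, choice of probe set, chromosome 8 and fold threshold, 205 values in all, of which 176 moved by less than the SD between probe sets of a gene (or, for a count, by less than 1.5 times) and 29 by more. That SD is a scale for single genes and is wide for a median over a list: the members' median, counted among the 176, was 0.01 with quantile normalization and -0.02 with lowess, against -0.17 in the setting reported. None of the values past 2-fold changed sign. As deposited, without centring, the members' median was 0.26, the large and small subunit medians 0.24 and 0.28, and Rps27 was at -1.52. In that setting 2 members were at least 1.2-fold lower, 20 at least 1.2-fold higher, and 2 lay below 0. The list medians as deposited were 0.47 for ribosomal proteins with other symbols, 0.42 for biogenesis factors, 0.40 for RNA polymerase I genes, 0.39 for initiation and 0.33 for elongation factors, 0.36 for mTORC1 and TOP regulators, 0.72 for the Myc family, 0.83 for the p53 axis and 0.52 for mitochondrial ribosomal proteins. These moves are the shift itself. Members at least 1.2-fold lower, 8 in the setting reported, numbered 2 with quantile normalization, 2 with lowess, 5 without a floor and 4 with the mean over probe sets; 16 lay below 0 with quantile normalization, and 1 was at least 1.2-fold higher without a floor. With a floor at the 75th percentile Rps27 was at -0.92 and 0 members were at least 2-fold lower, since its KO signal was then at the floor. With shared probe sets added, an alternative chosen after seeing the data for all but the members' median, 69 genes were measured, Rps27 was at -0.08, 0 were at least 2-fold lower, 13 at least 1.2-fold lower, and 67 below the shift. A 1.5-fold threshold gave 2 lower members. The difference between subunit medians ran from -0.05 to -0.01 over its alternatives. A signal close to the floor limits what dim probe sets can show.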

Other observations

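The 3 control probe sets for 18S ribosomal RNA, the RNA of the small subunit, were dimmer on the KO array as deposited. Their signals were 178.4 and 110.5, 135.9 and 89.2, and 201.5 and 106.4 on the control and KO arrays. Their median log2 ratio was -0.69. All 3 were dim, with floors of 60.9 on the control and 74.2 on the KO array. Whether these control signals follow the amount of 18S RNA in the cells was not tested.

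Probe sets that list the same ribosomal protein gene could differ in ratio, both with different and with the same partner symbols. The probe set listed for Rpl13 with Tax1bp3, an unrelated gene, had 852.8 and 1556.7, a log2 ratio of 0.44 relative to the shift. The 3 listed for Rpl13 with Rpl13-ps6 ran from -0.48 to -0.38. Those 3 were also much brighter, so partner symbol and signal cannot be told apart here. Among the probe sets listed for Rps6 with Rps6-ps4, 1 of intermediate signal was dimmer on the KO array (3451.0 and 2993.4, ratio -0.63). The bright ones ran from -0.30 to -0.17. Another of intermediate signal (2403.4 and 2760.4) was at -0.23, and the less bright ones were at -0.36, -0.31 and -0.40.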
